A study of Mus musculus with 4 samples.

Results

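The genes described here encode 8 receptors by which tissue macrophages bind and clear material: Mrc1, Cd163, Stab1, Folr2, Vsig4, Timd4, Msr1 and Marco. They were chosen by symbol, and each of the 8 was found once among the genes measured. Sorted CD45+ hindpaw leukocytes of male animals went through droplet single-cell sequencing, which counts each captured transcript by a unique molecular identifier (UMI). Animals were WT or DB and 12 or 21 weeks old. DB mice are homozygous for the db allele of the leptin receptor (C57BLKS/J-Dock7m +/+ Leprdb) and WT mice are their Lepr WT/WT littermates. The db allele is carried in every cell, and DB mice become obese and diabetic. Each group was 1 library from 2 to 3 pooled mice, so no difference between groups had a replicate check and none was tested. Intervals are exact, at 95%, and cover counting error only.

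Scavenger receptors are surface proteins that bind modified lipoproteins, glycoproteins, dying cells or microbes and carry them into the cell for breakdown. Macrophages that live in a tissue hold them at higher levels than monocytes that have just arrived, and combinations of Timd4, Folr2, Vsig4 and Lyve1 are widely used to mark resident populations. The endocytic receptors Mrc1, Cd163 and Stab1 are found on many perivascular and interstitial macrophages, whereas Msr1 and Marco belong to the class A family with a collagen-like stalk.

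The genes are protein-coding and scattered over the mouse genome (GRCm38). Mrc1, the mannose receptor, lies at chr2:14229392-14332057 on the plus strand. Cd163, the receptor for haemoglobin bound to haptoglobin, lies at chr6:124304656-124330527 on the plus strand. Stab1, which takes up modified lipoproteins and extracellular matrix fragments, lies at chr14:31139013-31168641 on the minus strand. Folr2, a folate receptor, lies at chr7:101839988-101857194 on the minus strand. Vsig4, a receptor for complement C3 fragments, lies at chrX:96247203-96293438 on the minus strand. Timd4, which binds phosphatidylserine on dying cells, lies at chr11:46810800-46844332 on the plus strand. The class A receptors Msr1 and Marco lie on the minus strand, at chr8:39581685-39642673 and chr1:120474538-120505024.

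The sequences before the start sites of Vsig4, Folr2 and Timd4 are shown because these 3 genes tended to be detected together in pairs. In all 4 libraries the odds of detection in the same macrophage were raised for each pair, as described further on. How many macrophages held all 3 was not counted. The sequences are the 250 bases before each RefSeq start (GRCm38.p6), written 5′ to 3′ on the gene's strand. Matches to the searched motifs are in capitals.
Vsig4, chrX:96293439-96293688, minus strand: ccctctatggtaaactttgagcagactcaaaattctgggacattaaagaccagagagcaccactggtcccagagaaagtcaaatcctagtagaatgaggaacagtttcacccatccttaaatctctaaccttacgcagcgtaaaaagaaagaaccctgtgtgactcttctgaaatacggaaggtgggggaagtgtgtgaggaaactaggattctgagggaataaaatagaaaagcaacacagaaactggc
Folr2, chr7:101857191-101857440, minus strand: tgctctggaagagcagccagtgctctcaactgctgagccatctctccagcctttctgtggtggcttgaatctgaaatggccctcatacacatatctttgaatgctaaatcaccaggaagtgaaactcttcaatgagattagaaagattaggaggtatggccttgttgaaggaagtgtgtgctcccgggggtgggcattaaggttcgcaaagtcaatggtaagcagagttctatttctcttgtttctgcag
Timd4, chr11:46810549-46810798, plus strand: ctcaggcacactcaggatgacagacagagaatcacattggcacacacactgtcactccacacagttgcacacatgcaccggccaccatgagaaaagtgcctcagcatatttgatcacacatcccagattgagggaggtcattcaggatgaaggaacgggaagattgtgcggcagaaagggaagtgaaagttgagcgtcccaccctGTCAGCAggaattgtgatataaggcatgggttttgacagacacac
The motifs were searched on both strands in windows of 250 bases before to 50 after each start. A motif of MAF factors (TGCTGAC, in 4.67% of 32851 promoters) lay on the minus strand of Timd4, from 45 bases before the start, and in none of the other receptors. The core motif of the macrophage factor PU.1 (GAGGAAG, in 13.6%) matched in Mrc1 and Marco and in none of the sequences printed, and its letters were set after the sequences had been read. Another Folr2 start held no match, and Msr1 had no entry. A match is a run of letters and not a shown site of binding.

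The files held 30793 barcodes, between 5998 and 9124 per library, with 47851794 to 69626521 UMIs. Filters of 200 genes or more and no more than 10% mitochondrial UMIs left 27800 barcodes, and 6120 of them were taken as macrophages, with at least 10 UMIs of C1qa, C1qb and C1qc together and none of Cd3e. There were 1600 from WT and 1662 from DB mice of 12 weeks, and 1497 from WT and 1361 from DB mice of 21 weeks, or 30.4%, 25.4%, 20.6% and 15.6% of kept barcodes, and their median depth was 9184.5 to 10808 UMIs. All 8 macrophage markers were detected in every library, summing to 12874 to 22678 CPM, the UMI count of a gene scaled to the total of the same cells. C1qa, C1qb and C1qc are among these markers and also make the gate, so their part of the sum was set by it. The 5 T cell markers summed to 7.93 to 13.4 CPM in macrophages, with Cd3e at 0 by the gate, and the 5 monocyte markers to 138 to 431. Neutrophil markers summed to 65.4 to 245, ILC2 markers to 181 to 307, mast cell markers to 30.8 to 125, dendritic cell markers to 23.1 to 70.9 and B cell markers to 8.38 to 35.5 CPM. Those of endothelium (10.5 to 16.3), fibroblasts (4.98 to 38.4), keratinocytes (10.5 to 33.3) and red cells (0.578 to 9.60) were low, and the part of these transcripts in the results was not tested. Ptprc, which encodes CD45, was detected in 82.2% to 92.2% of macrophages. Both 21-week libraries shared 154 barcodes and the other pairs 6 to 41, of which 1 was a macrophage in both libraries of a pair. Xist had 4 to 9 UMIs in a library. Lepr had 17 to 30, too few to check the genotype.

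Mrc1 transcripts were found in nearly every macrophage of each library, and their level differed more than the share of cells with them. Levels below are listed for WT then DB at 12 weeks, followed by WT then DB at 21 weeks, with 95% intervals in parentheses. The level of Mrc1 was 1191 (1175 to 1208), 871 (857 to 884), 814 (801 to 828) and 541 CPM (529 to 553). At least 1 UMI was present in 94.9%, 93.0%, 94.5% and 88.7% of macrophages, and a macrophage with Mrc1 held a median of 10, 8, 7 and 5 UMIs. The DB library was thus the lower of each age pair, and the 21-week library the lower of each genotype pair.

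Cd163 was found in 53.6% to 64.4% of macrophages and, with Msr1, was at a higher level in DB than in WT at both ages. It was at 519 (508 to 530), 675 (663 to 687), 447 (437 to 457) and 734 CPM (720 to 749). The shares of macrophages with a UMI lay closer together, at 60.9%, 64.4%, 53.6% and 56.6%. Cells with Cd163 held a median of 6 and 8 UMIs at 12 weeks, and of 7 and 10 at 21 weeks, in WT and DB.

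Stab1 and Folr2 had their highest level in 12-week-WT and their lowest in 21-week-DB. Stab1 was at 342 (333 to 351), 210 (203 to 216), 191 (185 to 198) and 138 CPM (132 to 144). It was detected in 73.2% of macrophages of 12-week-WT and in 51.6%, 57.8% and 53.0% of those of the other libraries. Folr2 was at 443 (433 to 453), 262 (255 to 270), 310 (302 to 318) and 196 CPM (189 to 204). Its shares were 69.8%, 54.8%, 57.0% and 54.5%, so that 12-week-WT stood apart and the intervals of the other 3 libraries overlapped.

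Vsig4 was split between many macrophages without a transcript and a minority with many. Its level was 481 (470 to 491), 279 (271 to 287), 582 (571 to 593) and 656 CPM (643 to 670). At least 1 UMI was found in 25.8%, 20.3%, 32.1% and 40.2% of macrophages. Those with 5 or more UMIs were 15.1% (13.3 to 16.9), 12.1% (10.6 to 13.8), 24.0% (21.8 to 26.2) and 26.5% (24.2 to 29.0) of macrophages. These cells carried 96.3%, 95.1%, 97.8% and 95.8% of all Vsig4 UMIs of macrophages, with a median of 27, 16, 23 and 17 UMIs per cell. By comparison, Mrc1 was spread over all classes of UMI number, and no cell in 3 of the 4 libraries held 10 or more Timd4 UMIs.

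**Figure D1:**
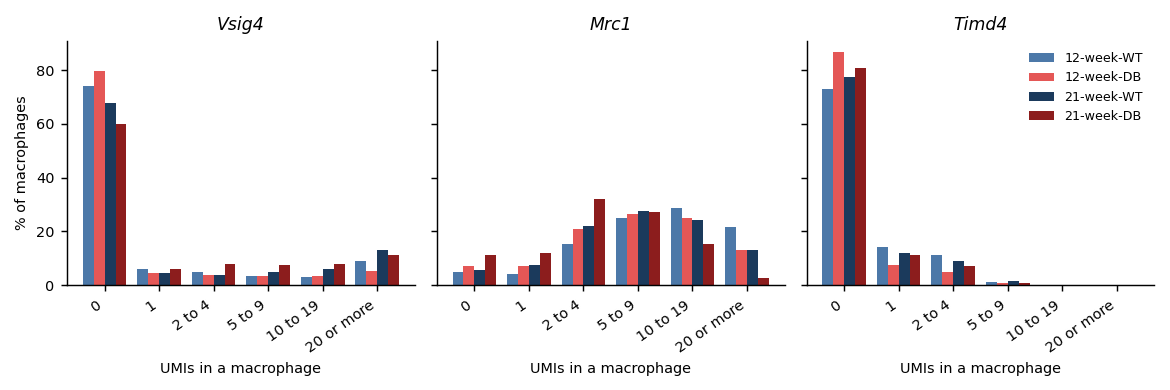
Share of macrophages (vertical axis, %) by the number of UMIs of Vsig4, Mrc1 or Timd4 in the cell (horizontal axis), with 1 bar per library. Vsig4 was absent from 59.8% to 79.7% of macrophages, yet 5.35% to 13.2% held 20 UMIs or more.

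Timd4 was detected in a minority of macrophages, with a median of 1 UMI in those that had it. It was at 49.3 (46.0 to 52.7), 21.9 (19.9 to 24.1), 38.8 (36 to 41.8) and 34.7 CPM (31.7 to 38.0). The shares with a UMI were 26.9%, 13.4%, 22.6% and 19.3%. 12-week-DB was the lowest library by both measures, and the intervals of the 2 libraries of 21 weeks overlapped.

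Msr1 was found in 65.4%, 72.4%, 59.9% and 64.1% of macrophages. Its level was 167 (161 to 174), 211 (204 to 217), 119 (114 to 124) and 165 CPM (159 to 172), so that the DB library was the higher of each age pair. Marco, its relative, had 6, 3, 2 and 17 UMIs in all macrophages of a library, or 0.356, 0.157, 0.112 and 1.23 CPM. The 17 UMIs of 21-week-DB came from 9 macrophages.

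**Figure D2:**
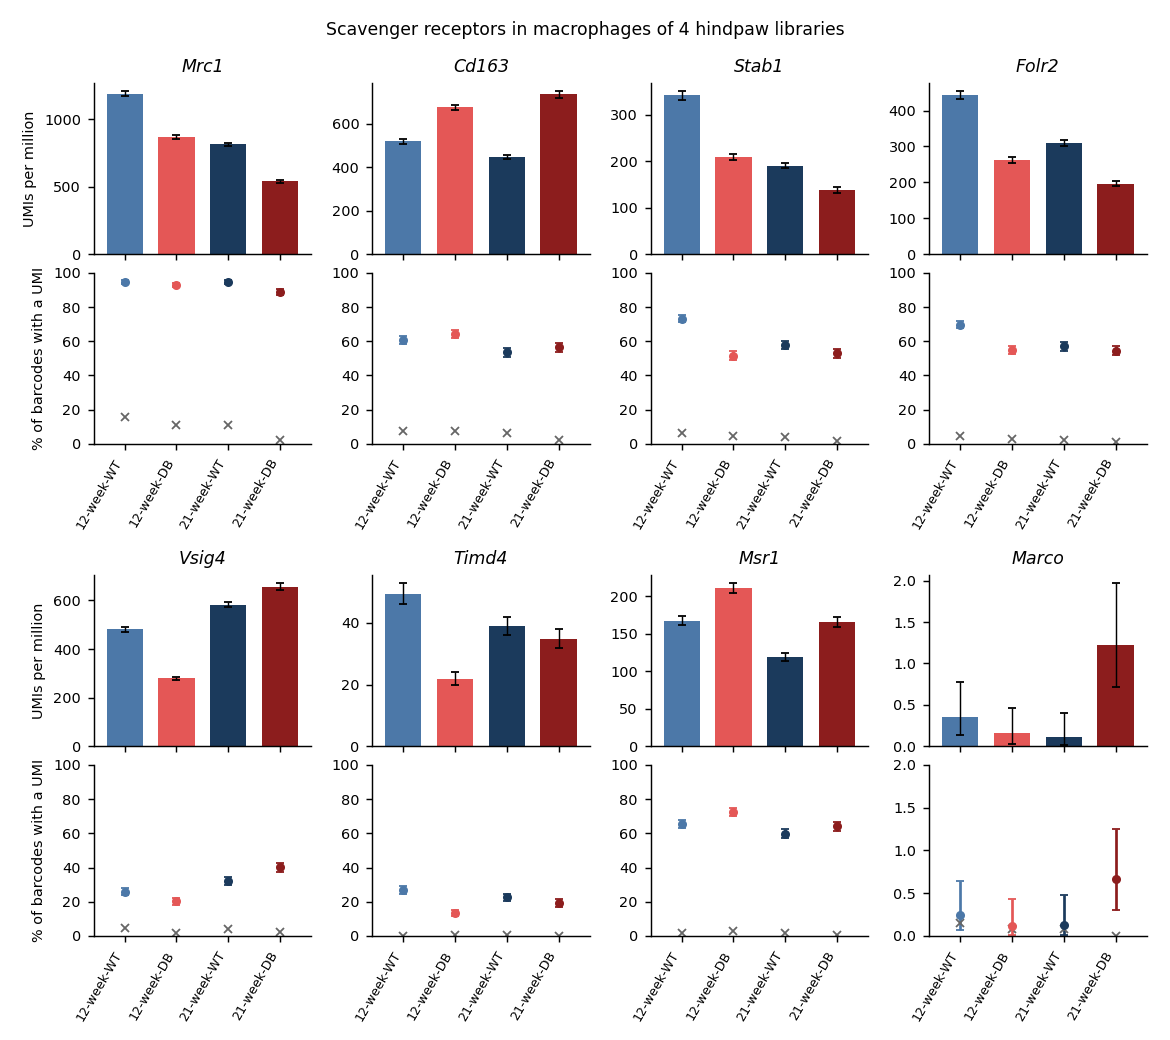
Level of each receptor in macrophages (upper panels, CPM, bars from 0 with exact 95% Poisson intervals) and share of macrophages with at least 1 UMI (lower panels, points with exact 95% binomial intervals) in the 4 libraries. Crosses give the share in Cd3e+ barcodes, and the Marco panels have their own scale, up to 2%.

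Depth and free RNA bear on these shares. With each cell thinned to 3000 UMIs (26 to 59 shallower macrophages left out per library), Mrc1 was detected in 83.9%, 76.6%, 75.7% and 66.7% of macrophages. In Cd3e+ barcodes, which should lack it, the share at the same depth was 6.45%, 6.20%, 5.87% and 1.07%. Thinned Vsig4 shares were 20.2%, 15.5%, 27.3% and 33.1%, against 2.64%, 0.922%, 1.17% and 1.27% in Cd3e+ barcodes. For Timd4 they were 13.1%, 5.59%, 8.91% and 8.94%, against at most 0.336% in Cd3e+ barcodes. Stab1 (29.8% to 53.3%), Folr2 (31.9% to 55.7%), Cd163 (40.3% to 53.0%) and Msr1 (27.5% to 43.2%) had Cd3e+ shares of at most 4.02%. Marco was at 0 to 0.526% of macrophages. Before thinning, Cd3e+ barcodes had a median of 5613 to 7325.5 UMIs.

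Levels over all kept barcodes showed which receptors were largely held by macrophages. Between macrophages and the other kept barcodes, compared over the 4 libraries with edgeR's quasi-likelihood test on sums per library, 30.3% of 14443 genes were called higher and 32.1% lower, and 7 of the 8 receptors were called higher. The log2 differences were 5.17 for Vsig4 (SE 0.23, adjusted p = 1.88e-05), 4.76 for Folr2 (SE 0.18, adjusted p = 1.21e-05) and 4.16 for Stab1 (SE 0.10, adjusted p = 3.56e-06). Smaller differences were found for Msr1, at 3.28, Cd163, at 2.83, Mrc1, at 2.74, and Timd4, at 2.13. Of the UMIs of Vsig4, Folr2 and Stab1, 86.8% to 96.7% lay in macrophages, whereas for Timd4 it was 53.1% to 75.0% and for Mrc1 65.0% to 77.8%. The gate itself uses C1q genes and Cd3e.

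The dendritic-like barcodes with Flt3 and H2-Ab1 also held part of the family. In these barcodes, with under 10 C1q UMIs, Mrc1 was at 225 to 317 CPM, Cd163 at 155 to 221 and Timd4 at 24.7 to 51.7, while Folr2 was at 0 to 2.66 and Vsig4 at 1.10 to 4.26. Timd4 in 21-week-DB was higher there (51.7) than in macrophages (34.7). In 12-week-DB, too, Timd4 was higher there (24.7 or more) than in macrophages (21.9). Msr1 was at 51.4 to 167 CPM in Plac8+ barcodes, a gate for monocytes, and at 10.4 to 154 in S100a8+ barcodes, a gate for neutrophils, with 21-week-DB the highest of both, from 42 and 64 barcodes. Marco was not called between macrophages and the others (log2 difference -1.55, SE 1.07, edgeR adjusted p = 0.250). Of its 94, 45 and 82 UMIs in both 12-week libraries and 21-week-WT, 80, 31 and 69 lay in Flt3+ H2-Ab1+ barcodes, and 2.44% to 6.67% in macrophages. For 21-week-DB the share in macrophages was 73.9% of 23 UMIs.

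**Figure D3:**
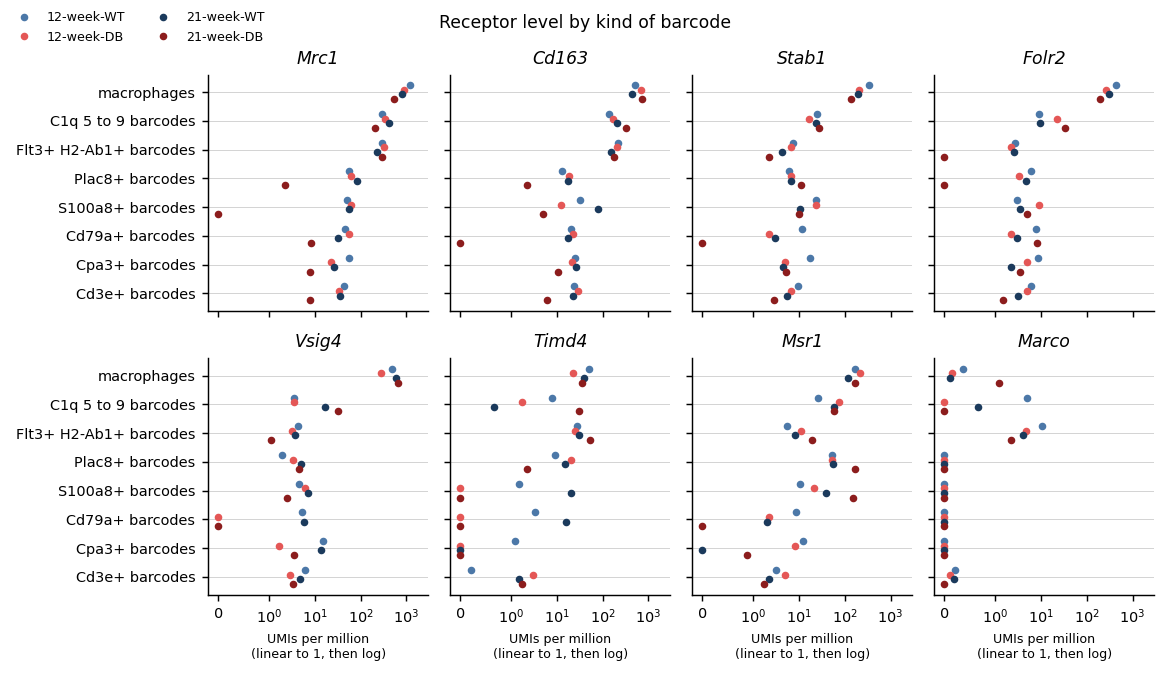
Level of each receptor (horizontal axis, CPM, linear up to 1 and logarithmic beyond) in macrophages and in 7 other kinds of barcode, with 1 point per library. Folr2, Vsig4 and Stab1 stood above every other kind, whereas Mrc1 and Cd163 were also high in Flt3+ H2-Ab1+ barcodes and Marco was highest there in every library.

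The comparison of DB with WT asked how the receptors differed with diabetes at each age. At 12 weeks 4 of the 7 receptors with at least 50 UMIs were at least 1.5-fold lower in DB, and none was 1.5-fold higher. Timd4 was 2.25-fold lower (log2 ratio -1.17, interval -1.34 to -1.0), Vsig4 1.72-fold (-0.79, -0.84 to -0.74), Folr2 1.69-fold (-0.76, -0.81 to -0.71) and Stab1 1.63-fold (-0.71, -0.77 to -0.65). Of all 11648 genes so compared, 7.75% were at least 1.5-fold lower and 4.23% at least 1.5-fold higher. The median log2 ratio was -0.71 over the 7 receptors and 0.00 over all genes. Mrc1 (-0.45), Cd163 (0.38) and Msr1 (0.33) did not reach 1.5-fold. By the mean of cells, which weights each macrophage equally, Vsig4 (-0.50) no longer reached it and Mrc1 (-0.59) did. The markers of monocytes summed to 258 CPM in WT and 431 in DB macrophages at 12 weeks, and those of neutrophils to 239 and 74.7, and their part in these differences was not tested. For Timd4 most of the difference was in the share of positive cells (log2 ratio -1.01) and for Mrc1 in the UMIs per positive cell (-0.42, with -0.03 for the share). These parts depend on depth. At 3000 UMIs per cell the share with Mrc1 was 83.9% in WT and 76.6% in DB.

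At 21 weeks 3 of the 7 receptors passed 1.5-fold between DB and WT, with Cd163 higher and Mrc1 and Folr2 lower. Cd163 was 1.64-fold higher (log2 ratio 0.72, interval 0.67 to 0.76), at full depth almost entirely in UMIs per positive cell (0.64). At 3000 UMIs per cell the share with Cd163 was 40.3% in WT and 49.4% in DB. Folr2 was 1.58-fold lower (-0.66, -0.73 to -0.59) and Mrc1 1.51-fold lower (-0.59, -0.63 to -0.55), just past the threshold. Over all 11464 genes 14.5% were at least 1.5-fold higher and 7.89% at least 1.5-fold lower. Vsig4 was at 0.17 (0.13 to 0.21), and at 0.07 with TMM scaling, and the interval of Timd4 (-0.16, -0.33 to 0.01) included no difference. The median over the 7 receptors was -0.16, against 0.08 over all genes. With at most 5% mitochondrial UMIs, Mrc1 (-0.51) and Folr2 (-0.56) no longer reached 1.5-fold lower, nor did Mrc1 with doublets removed (-0.58) or the Cd3e+ level subtracted (-0.55). Monocyte markers summed to 283 CPM in WT and 138 in DB macrophages at 21 weeks, and neutrophil markers to 65.4 and 245, and their part was likewise not tested.

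The comparison of 21 with 12 weeks asked how the receptors differed with age in each genotype, and here the file headers name Cell Ranger 6.0.0 at 21 weeks and 5.0.0 at 12 weeks, so software and age cannot be told apart. In WT, Stab1 was 1.79-fold lower at 21 weeks (log2 ratio -0.84, interval -0.90 to -0.78), and the other receptors lay between -0.55 for Mrc1 and 0.28 for Vsig4. By the mean of cells Mrc1 (-0.67) and Folr2 (-0.61) also passed 1.5-fold lower, as did Folr2 with at most 5% mitochondrial UMIs (-0.60). Over all 11526 genes 12.6% were at least 1.5-fold lower and 3.09% at least 1.5-fold higher, with a median log2 ratio of -0.18. In DB, Vsig4 was 2.35-fold higher (1.23, 1.19 to 1.28) and Timd4 1.58-fold higher (0.66, 0.47 to 0.86), whereas Mrc1 was 1.61-fold lower (-0.69, -0.73 to -0.65) and Stab1 1.52-fold lower (-0.60, -0.68 to -0.52). The background was 10.6% higher and 13.1% lower of 11569 genes, with a median of -0.11. Stab1 no longer reached 1.5-fold with at most 5% mitochondrial UMIs (-0.56), doublets removed (-0.55), the Cd3e+ level subtracted (-0.58) or TMM scaling (-0.56), nor did Timd4 by the mean of cells (0.51). From 12 to 21 weeks the summed neutrophil markers were at 239 and 65.4 CPM in WT and at 74.7 and 245 in DB, and the monocyte markers at 258 and 283 in WT and at 431 and 138 in DB, and their part was not tested. These contrasts share libraries with those between genotypes, so the values are not independent. TMM scaling moved the median of all genes in WT from -0.18 to 0.00 and the ratio of Stab1 to -0.67.

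**Figure D4:**
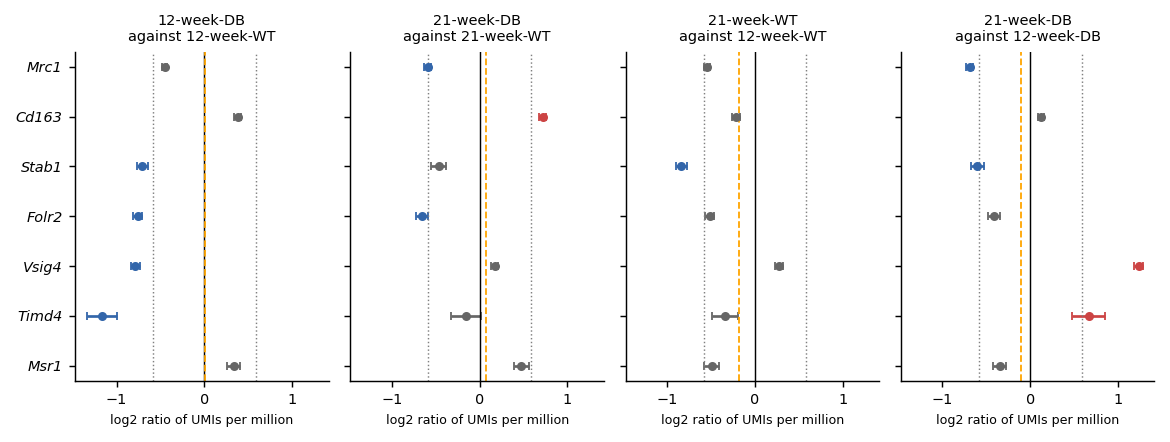
Log2 ratio of CPM in macrophages for 7 receptors (Marco left out for its few UMIs) in 4 contrasts, with 95% counting intervals. Dotted lines mark 1.5-fold, the dashed line is the median of all genes compared, and blue and red points are receptors past 1.5-fold lower and higher, such as Vsig4 at 1.23 in 21-week-DB against 12-week-DB.

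Since Vsig4 marks a minority, the contrasts were also taken within macrophages of 5 or more Vsig4 UMIs (201 to 361 per library) and within those of none (814 to 1325). Cd163 was higher in DB in both classes at both ages, by 0.19 and 0.82 on the log2 scale without Vsig4 and by 1.24 and 0.57 with it, at 12 and 21 weeks. Mrc1 was lower in DB without Vsig4 (log2 ratio -0.60 at both ages), but with Vsig4 it was higher at 12 weeks (0.40, interval 0.32 to 0.47) and lower at 21 weeks (-0.45, -0.54 to -0.37). Stab1 at 12 weeks was lower without Vsig4 (-0.88) and near even with it (-0.09, -0.20 to 0.03). Folr2 was lower in DB in both classes, with log2 ratios of -0.85 without and -0.32 with Vsig4 at 12 weeks, and of -0.55 and -0.87 at 21 weeks. Timd4 of 21-week-DB against 12-week-DB had intervals that included no difference in both classes, at -0.01 (-0.36 to 0.33) without and 0.21 (-0.07 to 0.49) with Vsig4.

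Co-detection was read from single macrophages. At 3000 UMIs per cell, a macrophage held a median of 2 or 3 of the 8 receptors, and 42.0% of those of 12-week-WT and 26.9% to 28.0% of those of the other libraries held 4 or more. The odds ratio of being detected in the same cell was over 1 in all 4 libraries for 17 of the 21 pairs. It was not computed for pairs of other genes, so this count has no background to be set against. By the median over libraries the odds ratio was highest for Folr2 with Vsig4, at 3.08 to 7.35. Next were Vsig4 with Timd4, at 2.62 to 5.70, and Stab1 with Folr2, at 1.33 to 4.29. Mrc1 with Vsig4 was over 1 in 1 library of 4 (0.568 to 1.69), Cd163 with Vsig4 and with Msr1 in 2, and Mrc1 with Timd4 in 2.

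Macrophages with a receptor were then compared with those without it, over 8 sums at 3000 UMIs per cell and with the library as a block. Of the 42 ordered pairs of 7 receptors, 30 were called higher, 1 lower and 11 neither (Marco was in too few cells to split by). Both orders of a pair use the same cells, so they are not independent. Over all genes, 1.4% to 8.46% were called higher and 2.55% to 8.27% lower, depending on the split. Vsig4 differed most in the split by Folr2. Its level was 569, 579, 1097 and 1120 CPM in macrophages with Folr2, and 121, 79.7, 185 and 397 in those without, so every library had the same order. The log2 difference was 2.27 (SE 0.15, edgeR adjusted p = 1.85e-08). All 6 other receptors were called higher with Folr2, against 8.37% of genes higher and 8.27% lower. Of these, Msr1 (0.27) was lost without 12-week-WT (0.21), 21-week-WT (0.22) or 21-week-DB (0.28), and Mrc1 (0.44) without 12-week-DB (0.33). Only 5 were called higher with the gate at 20 C1q UMIs, doublets removed, DESeq2 or shared barcodes left out. In 12-week-DB, Msr1 was at 208 CPM with Folr2 and 209 without.

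The split by Vsig4 gave the reverse view. Folr2 was 1.33 higher on the log2 scale (SE 0.10, edgeR adjusted p = 7.70e-10), Timd4 1.81 higher (SE 0.17, adjusted p = 1.54e-08) and Stab1 0.77 higher (SE 0.11, adjusted p = 1.17e-05). Mrc1 (-0.22, edgeR adjusted p = 0.143), Cd163 (-0.06, adjusted p = 0.813) and Msr1 (0.20, adjusted p = 0.134) were not called, where 8.09% of genes were higher and 7.11% lower. With Timd4, 3 receptors were called higher (Vsig4 by 1.6, Folr2 by 0.89 and Stab1 by 0.66), against 2.33% of genes higher and 2.82% lower. Vsig4 in macrophages with Timd4 was at 837 to 1621 CPM, and in those without at 233 to 538.

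Differences in the splits by Mrc1, Cd163, Stab1 and Msr1 were at most 1.34 on the log2 scale. In the split by Mrc1, Cd163 was higher by 1.34 (SE 0.11, edgeR adjusted p = 5.26e-07) and Stab1 by 1.10 (SE 0.12, adjusted p = 1.05e-05), against 5.39% of genes higher and 6.7% lower. Vsig4 was lower by 0.57 there (log2 difference -0.57, SE 0.14, adjusted p = 0.0116). It was at 296, 269, 530 and 538 CPM with Mrc1 and at 765, 263, 676 and 788 without, so 12-week-DB did not share the direction, and without thinning the difference was 0.43. In the split by Cd163, 4 receptors were called higher, namely Mrc1 by 0.58, Stab1 by 0.37, Folr2 by 0.36 and Timd4 by 0.39, against 2.8% of genes higher and 4.11% lower. The call of Timd4 was lost without 12-week-WT (0.39), 12-week-DB (0.32) or 21-week-WT (0.39). All 6 were called higher in the split by Stab1, from 0.30 for Msr1 to 1.32 for Vsig4, against 8.46% higher and 7.93% lower, and the call of Msr1 was lost without 21-week-WT (0.23). With Msr1, all 6 were called higher as well, by 0.17 to 0.49, against 1.4% of genes higher and 2.55% lower. There the call of Timd4 (0.43) was lost without 12-week-WT (0.37), 12-week-DB (0.42) or 21-week-DB (0.43), and that of Mrc1 (0.17) without 12-week-DB (0.14). Msr1 itself was not called in the splits by Mrc1 (0.27), Cd163 (-0.01), Vsig4 (0.20) or Timd4 (0.11).

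**Figure D5:**
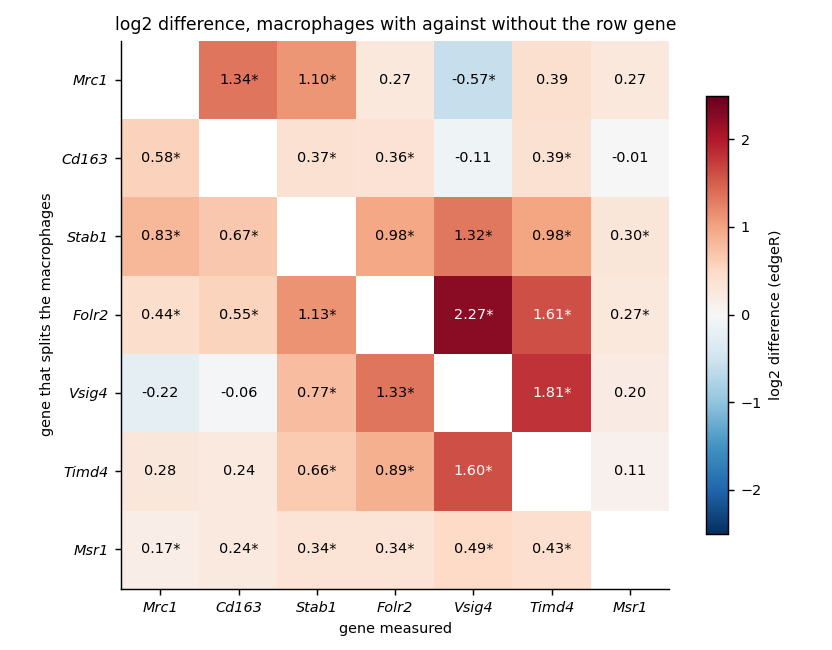
Log2 difference of each receptor (columns) between macrophages with and without a UMI of the row's receptor, at 3000 UMIs per cell over 4 libraries, with an asterisk for an edgeR adjusted p under 0.05. Vsig4 in the Folr2 row, at 2.27, was the largest value, and Vsig4 in the Mrc1 row, at -0.57, the single call below 0.

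The genes with the largest differences varied between the splits. Cxcl13, a chemokine for B cells, and Ccl8, a chemokine for monocytes and other leukocytes, were the genes that rose most with Mrc1 (log2 difference 5.73 and 4.42) and with Cd163 (1.91 and 1.65), whereas Cxcl13 was the one that fell most with Vsig4, by 3.86. Ednrb, an endothelin receptor, rose with Mrc1 (3.36), Stab1 (1.63) and Timd4 (1.43). Sparc, a matrix-associated glycoprotein, rose with Vsig4 (3.08), Folr2 (2.21) and Msr1 (0.63), and Pcolce2, a procollagen processing factor, with Vsig4 (3.59) and Timd4 (1.69). S100b, a calcium-binding protein, rose with Vsig4 (2.57), Folr2 (1.87) and Msr1 (0.57). Among those that fell, Ccr2, the receptor that recruits monocytes, fell by 3.34 with Vsig4 and by 2.81 with Timd4, and the MHC class II gene H2-Aa fell by 2.97 with Folr2. Il1b, an inflammatory cytokine, fell by 2.25 with Timd4 and by 1.51 with Cd163. Mcpt2, a mast cell protease, fell by 1.16 with Msr1.

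Genes that varied most like each receptor across single macrophages were taken as a description, from 3477 genes and with cells thinned to the same depth. Mrc1 went with F13a1, a coagulation factor subunit (mean Pearson r over 4 libraries 0.51), and with Selenop, the selenium transport protein (0.50). Stab1 went with Selenop (0.43) and with the transcription factor gene Maf (0.42), and Cd163 with F13a1 (0.33) and the platelet factor gene Pf4 (0.33). Folr2 went with the hyaluronan receptor gene Lyve1 (0.47) and with Timp2, a metalloproteinase inhibitor (0.46). Vsig4 went with Pmepa1 (0.52), Timp2 (0.46) and Ltc4s, the leukotriene C4 synthase (0.43). Timd4 went with Lyve1 (0.25) and Vsig4 (0.22), and Msr1 had weak values, at 0.15 for C1qc, which the gate uses. The points share a library and sparse counts.

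Among 18 other scavenger and clearance receptors, 14 were higher and 1 lower in macrophages than in the other barcodes (edgeR), against 30.3% and 32.1% of all genes. The lower one, Tyro3, had at most 8 UMIs in the macrophages of a library, so only a lower call was open to it. In the splits, those of the list called higher and lower were 3 and 7 of 16 with Mrc1 and 2 and 6 of 16 with Cd163. They were 7 and 2 of 16 with Stab1, 7 and 4 of 16 with Folr2 and 8 and 2 of 15 with Vsig4. With Timd4 they were 5 and 2 of 16, and with Msr1 6 and 0 of 16. Of all genes, 1.4% to 8.46% were called higher and 2.55% to 8.27% lower, depending on the split. Lyve1 was called higher with each of the 7 receptors, by 0.32 with Msr1 to 1.65 with Folr2. Cd36, a receptor for oxidized lipoproteins and fatty acids, was called higher with all but Vsig4 (-0.02), whereas Cd14, a lipopolysaccharide co-receptor, was called lower with all but Msr1 (-0.10). Itgb5, a subunit of an integrin that helps clear dying cells, was higher with Vsig4 (1.55), Folr2 (0.86), Stab1 (0.77), Timd4 (0.47) and Msr1 (0.30) and lower with Mrc1 (-0.65) and Cd163 (-0.57). Between libraries, 5 of 17 were at least 1.5-fold lower in DB at 12 weeks (Olr1, Mertk, Axl, Itgb5 and Fcgr1) and 5 at 21 weeks (Lyve1, Axl, Itgav, Itgb5 and Fcgr1), with none higher. Of all genes, 7.75% and 7.89% were lower, and 4.23% and 14.5% higher, in these contrasts. Axl, which binds dying cells through Gas6, was at 63.9 CPM in WT and 26.5 in DB at 12 weeks, and at 91.8 and 27.4 at 21 weeks. With age, 1 of 17 was lower in WT (Cd36), and in DB 5 were higher (Cd14, Olr1, Cxcl16, Mertk and Cd300lf) and 3 lower (Cd36, Scarf1 and Fcgr1). Of all genes, 12.6% were lower in WT, and 10.6% higher and 13.1% lower in DB.

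Of 12 paralogs of the 8 receptors, 3 had at least 50 UMIs in each pair of libraries. Colec12, a scavenger receptor with a C-type lectin domain, was called higher with each of the 7 receptors, by 0.27 to 1.36. Havcr2, a relative of Timd4, was higher with Vsig4 (0.97) and Timd4 (0.60) and lower with Mrc1 (-0.65) and Cd163 (-0.54). Of 8 paralogs tested, 6 were called lower in macrophages than elsewhere (Mrc2, Cd163l1, Stab2, Izumo1r, Scara3 and Scara5) and 2 higher (Colec12 and Havcr2). Of all genes, 32.1% were called lower and 30.3% higher. Mrc2, Stab2, Izumo1r, Scara3 and Scara5 had at most 4 UMIs in the macrophages of a library. They could enter the test only through the other barcodes, so lower was the only call open to them. Their number is therefore not a result to set against the share of all genes. Between libraries, Havcr2 was at least 1.5-fold lower in DB at 12 weeks and higher at 21 against 12 weeks in DB. Colec12 was lower at 21 weeks in WT. These were 1 of 3 genes in each contrast, against 7.75%, 10.6% and 12.6% of all genes.

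The genes of a list of 18 handle or bridge what these receptors bind. Hmox1, the haem oxygenase that acts after haemoglobin uptake by Cd163, was at 244, 223, 179 and 834 CPM, with 21-week-DB the highest. The ferritin genes Fth1 and Ftl1 were also at least 1.5-fold higher in DB at 21 weeks (log2 ratio 0.70 and 0.83), as were Blvrb (0.94), Mfge8 (1.26) and Hp (2.00, from 2.01 and 8.02 CPM), or 6 of 17 genes, with Sparc (-1.39) and C3 (-1.03) lower, against 14.5% of all genes higher and 7.89% lower. At 12 weeks Hp (47 UMIs in DB and 21 in WT) and Slc19a1 were higher and Slc40a1, C3 and Sparc lower. These were 2 and 3 of 17 genes, against 4.23% of all genes higher and 7.75% lower. With age, 2 of 17 were higher in WT (Hp and Sparc) and 4 lower (Slc40a1, Pros1, Slc46a1 and Fpgs). In DB 5 were higher with age (Hmox1, Fth1, Ftl1, Hp and Mfge8) and 3 lower (Pros1, Slc19a1 and Slc46a1). Of all genes, 3.09% were higher and 12.6% lower in WT, and 10.6% and 13.1% in DB. In the splits, Hmox1 was higher with Cd163 (0.90, SE 0.14, edgeR adjusted p = 1.80e-04), Mrc1 (0.68) and Stab1 (0.42). Gas6, the bridge between dying cells and Axl or Mertk, was called higher with each of the 7 receptors, by 0.23 to 1.24.

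Of 13 transcription factors of resident macrophages, 8 were called higher and 1 lower in macrophages than in other barcodes, against 30.3% and 32.1% of all genes. Maf was called higher with each of the 7 receptors, by 0.27 with Msr1 to 1.29 with Mrc1. Id3 was called lower with Stab1, Folr2, Vsig4, Timd4 and Msr1, and Cebpb, a factor of inflammatory gene expression, was called lower with all but Mrc1 (-0.19). Maf was at 1546, 899, 619 and 794 CPM. It was thus at least 1.5-fold lower in DB at 12 weeks (-0.78) and at 21 weeks in WT (-1.32). Id3 was at 16.2, 15.1, 55.6 and 81.2 CPM, higher at 21 weeks in both genotypes. Spic and Nr1h3 were at least 1.5-fold higher in DB at 21 weeks (1.46 and 1.08), from at most 11 CPM. Of 12 factors counted, 2 were lower and 0 higher in DB at 12 weeks, and 2 higher and 0 lower at 21 weeks. Of all genes, 7.75% were lower and 4.23% higher at 12 weeks, and 14.5% higher and 7.89% lower at 21 weeks. With age, 2 factors were higher and 3 lower in WT, and 4 higher and 0 lower in DB. The shares of all genes were 3.09% higher and 12.6% lower in WT, and 10.6% and 13.1% in DB.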

How the data were processed

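Reads were aligned by the authors to mm10 in Cell Ranger, and the deposited values are raw UMI counts for each gene and barcode. The labels' processing notes name Cell Ranger 5.0.0, and the file headers name 5.0.0 for 12-week and 6.0.0 for 21-week libraries. Kept barcodes had 200 genes or more and no more than 10% mitochondrial UMIs, and macrophages had at least 10 UMIs of C1qa, C1qb and C1qc and none of Cd3e. The other barcodes described, all with under 10 C1q UMIs, had at least 2 UMIs of Cd3e, 10 of Cpa3, 2 of Cd79a, 10 of S100a8, 5 of Plac8, or 1 of Flt3 with 10 of H2-Ab1. The receptors, the gate, the gene lists and the tests were chosen with earlier results of these data known. Doublets were not removed in the main analysis, and Scrublet's own threshold marked at most 2 barcodes in a library.

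Counts were summed over cells and divided by the total UMIs of the same cells. Intervals were exact Poisson and Clopper-Pearson intervals, at 95%. A floor of 3 counts, or 0.157 to 0.217 CPM in macrophages of a library, was worked out for reading a count of 0. Levels and shares of 0 are printed here as 0. With 1 library per condition, contrasts were counted past 1.5-fold among genes with at least 50 UMIs in both libraries together. Sums per library and arm were tested with edgeR 4.0.16 in R 4.3.3 (TMM, filterByExpr, quasi-likelihood test, blocked by library, with a threshold of 0.05 on the Benjamini-Hochberg adjusted p), for macrophages against other kept barcodes and, at 3000 UMIs per cell, for receptors with at least 20 cells in each arm. The arms of a library come from the same pooled mice, so the block pairs them. Tested on simulated counts of the Vsig4 comparison (9450 genes), the fit recovered 85.6% of changes of 1 and 97.9% of changes of 2 on the log2 scale, with 13 false calls. The simulated dispersion and spread between libraries were set by hand, and each change was the same in every library. These figures therefore need not hold for the real fits. Named genes were the receptors, the lists (those past a threshold), the 3 called genes per split that rose most and the 3 that fell most, given 50 CPM or more on average and the same direction in all 4 libraries, and the 3 of highest correlation with each receptor. Numerical work used Python 3.11.15 and scanpy 1.11.5. Alternatives were other gates, limits and scalings, doublet removal, subtraction of the level in Cd3e+ barcodes, other thinning, DESeq2 1.42.0, no filter, no block and each library left out. Leaving out barcodes shared between libraries was added after seeing the data. Results for some genes are not reported here.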

Additional observations from a re-analysis of the deposited data

Results flagged for a closer look

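Some receptors differed in opposite directions between the same groups at the other age or in the other genotype, with both counting intervals clear of 0. With 1 library per group, these differences between contrasts were not tested. Vsig4 was lower in DB than in WT at 12 weeks (log2 ratio -0.79) and higher at 21 weeks (0.17), so that the ratio at 21 weeks minus that at 12 weeks was 0.959. The value at 21 weeks was close to the median of all genes (0.08), and 0.07 with TMM scaling. Timd4 was lower at 21 than at 12 weeks in WT (-0.34) and higher in DB (0.66), a difference between the genotypes of 1.009. The WT value was -0.17 with TMM scaling, and the DB value 0.51 by the mean of cells. Within macrophages with no Vsig4 UMI and with at least 5, the DB interval of Timd4 included no difference (-0.01 and 0.21). For Cd163 the ratio of 21 to 12 weeks was -0.22 in WT and 0.12 in DB, a difference of 0.338, where the median of all genes was -0.18 in WT and TMM scaling gave -0.04 for Cd163. In macrophages with no Vsig4 UMI, the same contrast of Cd163 was -0.34 and 0.28, with a difference of 0.625. In macrophages with at least 5 Vsig4 UMIs it took the other order, at 0.20 in WT and -0.47 in DB, with a difference of -0.667. In these cells Mrc1 was higher in DB at 12 weeks (0.40) and lower at 21 weeks (-0.45), with a difference of -0.851.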

How the results depend on the processing

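The log2 ratio between libraries kept its sign under all settings run for every receptor past 1.5-fold, and the cause of the moves below was not tested. Receptors at least 1.5-fold lower between both 21-week libraries numbered 2, against 0 with at most 5% mitochondrial UMIs, and 1 with doublets removed or the Cd3e+ level subtracted. Those lower in DB with age numbered 2, against 1 with at most 5% mitochondrial UMIs, doublets removed, subtraction or TMM scaling, and those lower in WT with age 1, against 2 with at most 5% mitochondrial UMIs or no filter and 3 by the mean of cells. Those higher in DB with age numbered 2, against 1 by the mean of cells, and those higher in DB at 21 weeks 1, against 2 with no filter. The receptor added with no filter was Marco, from few UMIs. It had 17 in DB and 2 in WT at 21 weeks, and 2 at 21 and 6 at 12 weeks in WT. Over all genes, TMM scaling moved those 1.5-fold higher and lower with age in WT from 356 and 1454 to 629 and 774. It moved those higher and lower in DB at 21 weeks from 1664 and 905 to 1267 and 1250. With the Cd3e+ level subtracted, the genes higher and lower in DB numbered 2014 and 2050 at 12 weeks and 2500 and 1635 at 21 weeks, and those higher and lower with age 1226 and 2652 in WT and 1925 and 2415 in DB. With no filter these were 1839 and 2504, 3660 and 2032, 1487 and 3240, and 2945 and 2561.

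In the splits by Mrc1, Cd163, Stab1, Folr2, Vsig4, Timd4 and Msr1, edgeR called 1159, 679, 1612, 1636, 1456, 501 and 389 genes. Of the 42 pairs, 30 were called higher and 1 lower. Without the library as a replicate block, which drops the pairing of arms, edgeR called 20, 0, 41, 231, 260, 6 and 0 genes, and 28 of the called pairs changed to no call. Receptors called higher were then 0 for Mrc1, Cd163, Stab1, Timd4 and Msr1, 2 for Folr2 and 1 for Vsig4, and 0 were lower for Mrc1. With DESeq2 the counts of genes were 377, 152, 636, 741, 709, 232 and 129, and 0 receptors were lower with Mrc1. Without thinning they were 617, 200, 3031, 3209, 2771, 2028 and 1628. Vsig4 in the Mrc1 split then turned from -0.57 to 0.43, leaving 0 receptors lower, and 2 receptors were higher with Cd163 and 5 with Timd4. At 2000 UMIs per cell 1023 genes were called with Stab1, 273 with Timd4 and 133 with Msr1, where 3 receptors were higher. At 5000 UMIs 1009 were called with Timd4 and 737 with Msr1. With the gate at 20 C1q UMIs 254 genes were called with Msr1, and 1 receptor was lower with Vsig4. With no filter 1 was lower with Vsig4 and 4 were higher with Mrc1. In the Mrc1 split, 44.6% of called genes were higher, against 55.1% without thinning and 55.3% with no filter. Called pairs that changed to no call numbered 6 at 2000 UMIs, 5 with DESeq2 and 4 with the gate at 20 C1q UMIs. They numbered 2 with doublets removed.

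With each library left out in turn, the genes called were 527 to 1185 with Mrc1, 344 to 892 with Cd163, 1068 to 1708 with Stab1, 978 to 1769 with Folr2, 952 to 1425 with Vsig4, 287 to 524 with Timd4 and 226 to 357 with Msr1. Receptors called higher with Timd4 were 3 to 5, with 5 without 21-week-DB. Those called lower with Cd163 and with Vsig4 were 0 to 1, with 1 without 12-week-DB. Leaving out barcodes shared between libraries, chosen after seeing the data, lost 2 of the 42 pairs. Marco, at 2 to 17 UMIs, and the 42 Plac8+ barcodes of 21-week-DB limit what their levels can show.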
